A study of Mus musculus with 20 samples.

Results

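The genes described here are 47 proliferation genes of the mouse, chosen by name: 21 genes of DNA replication (the S members) and 26 genes of mitosis (the M members), of 35240 gene symbols in the table. They were followed in colonic organoids (colonoids), epithelial structures grown in a gel from crypts of the colon, of WT (C57BL/6) mice and of Tnfr2-/- mice (B6.129S2-Tnfrsf1b tm1Mwm/J), which lack TNF receptor 2 in the whole body. Cultures of both genotypes were collected 1, 2, 3, 5 or 7 days after a passage, counted as days post-passage (DPP). The study states that organoids for these experiments were not passaged down to single cells. Its culture methods describe 5 passages, a mesh filter and seeding as single cells. They add CHIR99021 to that medium, and Y-27632 for the first 2 days. Whether these steps and additives applied to the cultures here is not stated there. There were 20 mRNA libraries, 2 biological replicates for each genotype and day. Their sample codes carry M1 or M2, which is read here as mouse 1 and mouse 2 of each genotype. No source used here states that a number is the same animal on every day, and all values given per mouse, as mouse means or with the mouse as a block rest on that reading. Ages and sexes are not in the labels, and the study's methods describe mice of both sexes at 8 weeks of age for its cultures. Days 1 to 3 are called early here and days 5 and 7 late, which gives 6 early and 4 late libraries per genotype.

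Values are size-factor-normalised TPM (abundance corrected for transcript length) added up for each gene and termed normalised expression, so levels can be compared between genes. All 47 members passed the filter of a mean of at least 1. Libraries of the same genotype and day correlated across genes at a Pearson r of 0.923 to 0.956, and between 13007 and 13469 genes per library reached a value of 1. Tnfrsf1b itself lay between 11.1 and 21.9 in the 10 WT libraries and between 2.71 and 11.5 in the 10 Tnfr2-/- libraries, so the groups overlapped slightly in range. The cultures held the epithelial markers at a summed level of 12292 to 21368 over 9 genes, and also fibroblast markers at 1242 to 8594 over 10 genes, with Col3a1, a collagen of connective tissue, at a mean of 1444. Of the immune markers, Cd68, a lysosomal protein of macrophages, was at a mean of 17.6 and Lyz2 at 1.53, and the others, among them Ptprc, Cd3e, Itgam and Adgre1, were under 1. Of the endothelial markers, Pecam1 was at 1.35, and Cdh5 and Kdr were under 1. In such bulk samples, fewer cycling cells and less RNA of these genes per cell cannot be told apart.

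Cells copy their DNA in S phase and divide in M phase, and most genes of each step are transcribed only in cycling cells. Before S phase, the origin licensing proteins Cdc6 and Cdt1 load the Mcm2 to Mcm7 helicase on DNA, and cyclin E, E2f1 and the nucleotide synthesis enzymes are made. Later, cyclins A and B with Cdk1, the Aurora and polo kinases, kinesins and the anaphase-promoting ubiquitin ligase carry the cell through mitosis. In the colon, cycling cells sit at the crypt base and leave the cycle as they move up and differentiate.

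Textbook accounts attribute the timing of both groups to promoter elements: E2F sites at S-phase genes, and a CCAAT box together with a cell cycle homology region (CHR) at mitotic genes. Promoter windows from RefSeq (GRCm38.p6, 250 bases before to 50 after each start in that table) were found for 38 of the 47 members, 17 S and 21 M. No window was at hand for Aurkb, Ccna2, Ccne2, Foxm1, Gins2, Gmnn, Kif20a, Mcm4 and Tpx2. Shown here, because they carry the layouts most clearly, are the 140 bases before the RefSeq start of 6 members. They are written in the sense of the gene, with capitals for matched letters. In the annotation used here for gene coordinates, Cdc6 runs from 98907801 to 98923940 on chromosome 11. Its printed window therefore lies inside the gene by that annotation.
Mcm6 (S, chr1:128359706-128359845, minus strand): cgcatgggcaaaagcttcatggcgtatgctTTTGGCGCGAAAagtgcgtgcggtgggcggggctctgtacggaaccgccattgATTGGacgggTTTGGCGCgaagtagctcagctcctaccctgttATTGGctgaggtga
Cdc6 (S, chr11:98908011-98908150, plus strand): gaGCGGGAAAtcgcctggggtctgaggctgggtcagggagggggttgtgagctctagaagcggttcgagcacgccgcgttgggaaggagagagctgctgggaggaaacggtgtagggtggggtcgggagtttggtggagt
Pola1 (S, chrX:93632156-93632295, minus strand): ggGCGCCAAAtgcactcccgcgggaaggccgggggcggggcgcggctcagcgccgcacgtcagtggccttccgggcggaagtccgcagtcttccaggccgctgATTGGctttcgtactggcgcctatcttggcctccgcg
Cdk1 (M, chr10:69352913-69353052, minus strand): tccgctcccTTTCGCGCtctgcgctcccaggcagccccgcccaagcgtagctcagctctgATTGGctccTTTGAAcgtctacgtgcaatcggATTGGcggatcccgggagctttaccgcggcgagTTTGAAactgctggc
Cdc20 (M, chr4:118437344-118437483, minus strand): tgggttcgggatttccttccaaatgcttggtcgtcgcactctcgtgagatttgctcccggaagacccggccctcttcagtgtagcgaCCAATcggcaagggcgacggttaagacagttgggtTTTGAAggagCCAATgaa
Top2a (M, chr11:99024190-99024329, minus strand): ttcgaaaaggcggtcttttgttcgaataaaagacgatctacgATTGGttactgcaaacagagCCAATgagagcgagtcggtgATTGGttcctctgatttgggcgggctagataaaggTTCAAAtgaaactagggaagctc
The letters searched, on both strands, were TTTCCCGC, TTTGGCGC, TTTCGCGC and TTTGCCGC for E2F-like sites, TTTGAA for the CHR and CCAAT for the CCAAT box. Matches on the reverse strand therefore read as GCGGGAAA in Cdc6, TTCAAA in Top2a and ATTGG in Mcm6. The Mcm6 window holds 3 E2F-like matches, of which 1 pair overlaps on opposite strands, and the Cdc20 window a CHR close to the start between a pair of CCAAT boxes.

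E2F-like letters were present in the full windows of 8 of 17 S members (47.1%) and 1 of 21 M members (4.76%, Cdk1), against 4.68% of the 9998 genes tested that had a window and 2.60% of all 27025 genes with one. The S members that held them were Cdc6, Cdt1, Mcm3, Mcm5, Mcm6, Mcm7, Pola1 and Uhrf1. The CHR was the reverse, with 1 of 17 S members (5.88%, Mcm2) and 16 of 21 M members (76.2%), against 14.4% of the tested genes and 20.2% of all genes. In the 250 bases before the start alone, the CHR was at 9 M members (42.9%) and the same S member, against 12.8% of the tested genes, and E2F-like letters at 6 S members (35.3%) and 1 M member, against 3.93%. CCAAT boxes were present at 10 of 17 S members (58.8%) and 19 of 21 M members (90.5%), against 43.1% and 41.1%. The lists of other genes of these phases, given further on, held E2F-like letters at 12 of 36 S-phase genes and 4 of 40 M-phase genes, and the CHR at 11 and 24. Among the members, 1 pair of matches of different kinds overlapped. These are matches of letters, not sites known to be bound.

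**Figure D1:**
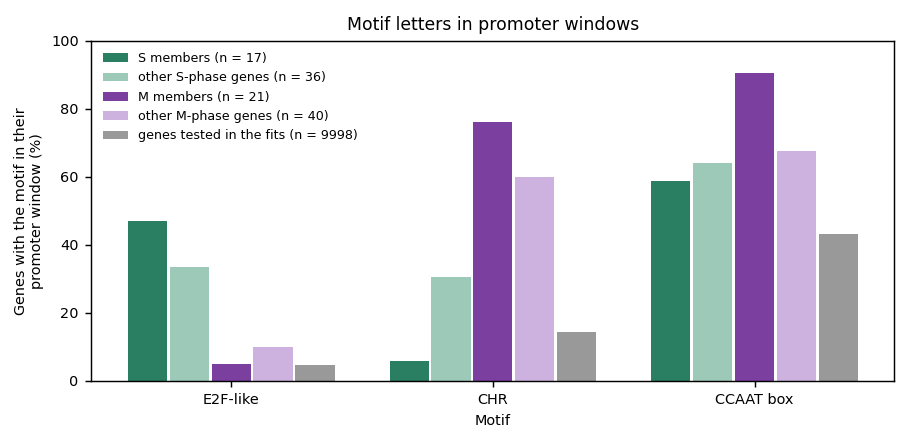
Share of genes (percent, y axis) whose 300-base RefSeq promoter window holds the letters of each motif (x axis); bars are gene lists, with the number of genes that have a window in the legend. E2F-like letters are in 47.1% of S members and 4.76% of M members, and the CHR in 5.88% and 76.2%.

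The proliferation genes were well above the filter in the colonoids. Pcna, the sliding clamp that holds DNA polymerase at the fork, had the highest mean level of the S members at 262 over all libraries, followed by the ribonucleotide reductase subunits Rrm1 (91.2) and Rrm2 (86.3). The lowest S member was Pola1, the catalytic subunit of DNA polymerase alpha, at 10.2. Cdk1, the mitotic kinase partner of the B cyclins, led the M members at 108, with the ubiquitin-conjugating enzyme Ube2c and the cytokinesis kinesin Kif23 both at 103. The lowest M member was Cenpe, a kinetochore motor, at 16.1.

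As a summary of each set, a score was taken for every library, namely the mean over the set of log2(value + 1) minus each gene's own mean over the 20 libraries. The S and M scores followed each other over the 20 libraries (Pearson r 0.943, a description, since the libraries share mice and days). A member's log2 level correlated with the score of the other members of its set at an r of 0.568 to 0.984 in the S set (median 0.922) and of 0.603 to 0.984 in the M set (median 0.927). The least alike were Mcm2 (0.568) and Cenpf, a kinetochore protein (0.603). In WT, the mean S score was, in the order of days, 0.59, 0.65, 0.24, -0.27 and -0.51, and in Tnfr2-/- it was 0.58, 0.31, -0.02, -0.59 and -0.98. The mean M score in WT was 0.22, 0.67, 0.34, -0.30 and -0.47, and in Tnfr2-/- it was 0.50, 0.58, 0.11, -0.57 and -1.08. In both genotypes the mean scores of both sets were thus higher at each of the first 3 days than at 5 or 7 DPP. At 7 DPP, both Tnfr2-/- libraries had lower scores (S -1.04 and -0.91, M -1.04 and -1.11) than both WT libraries (S -0.71 and -0.31, M -0.51 and -0.43). At 1 DPP, the WT mouse 2 library stood apart from the other 3 in its M score (-0.03 against 0.47 to 0.52).

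**Figure D2:**
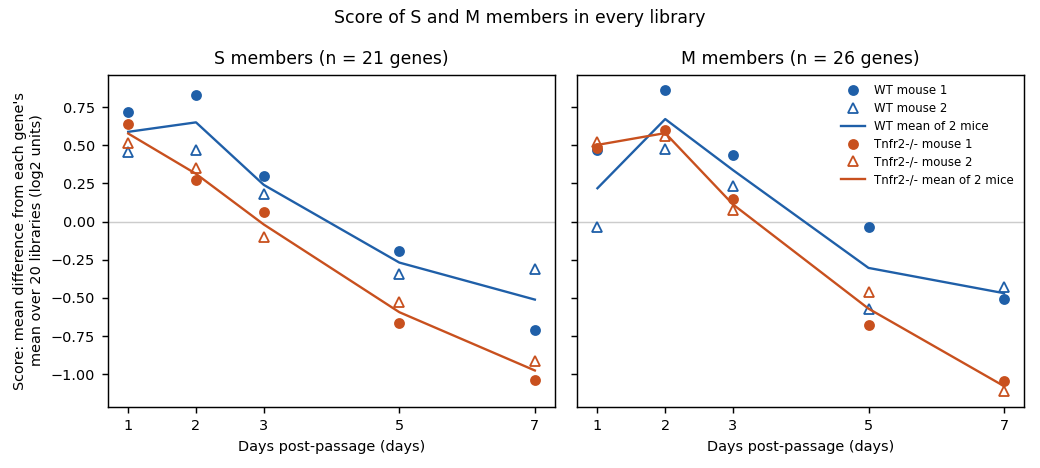
S score (left) and M score (right) in log2 units (y axis) of each library by day post-passage (x axis); symbols are mice and lines the means of 2 mice. The mean scores are highest at 1 or 2 DPP and lowest at 7 DPP, where both Tnfr2-/- libraries lie below both WT libraries in both sets.

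**Figure D3:**
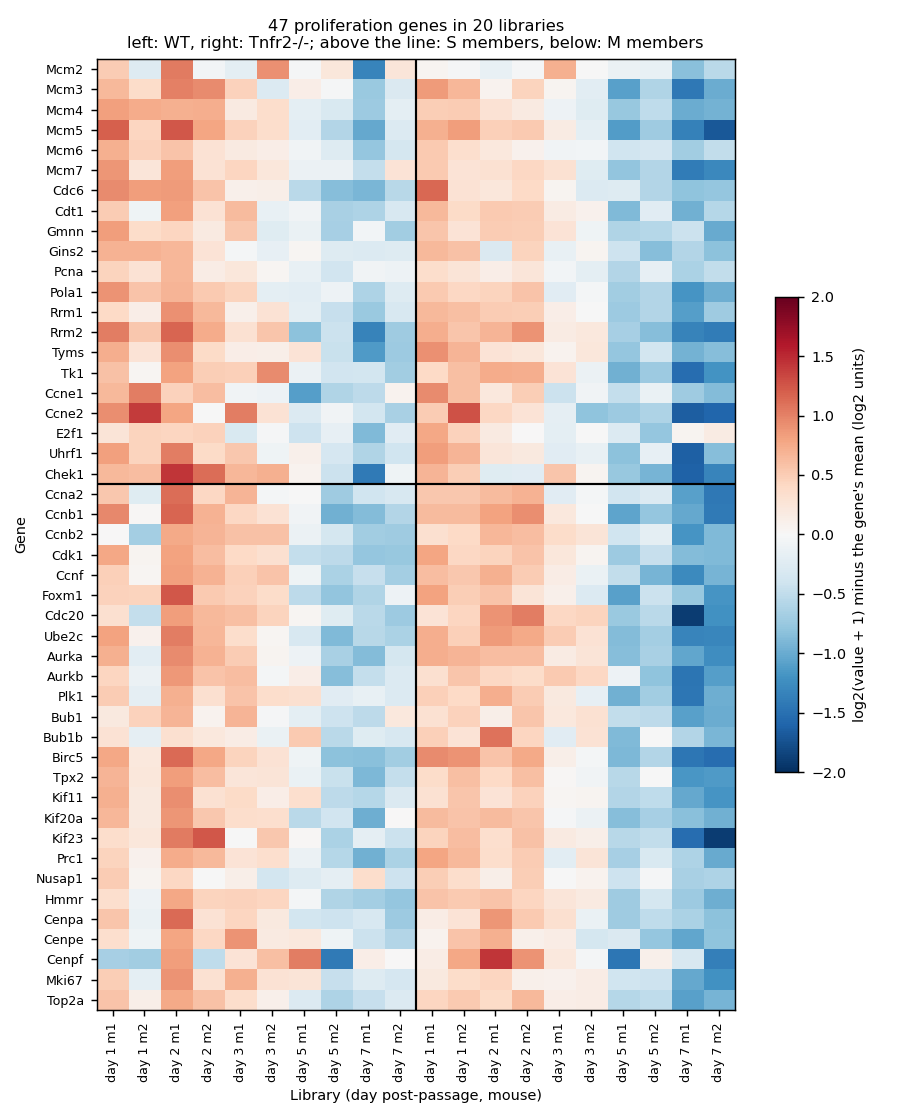
Level of each of the 47 members (y axis) in each of the 20 libraries (x axis, day and mouse) as log2(value + 1) minus the mean of the gene; red is above and blue below that mean, and differences beyond 2 are drawn as 2. WT libraries are on the left and Tnfr2-/- libraries on the right, S members above and M members below the black line.

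The first comparison asked how the proliferation genes changed as the cultures matured, late against early within each genotype. The S members fell in both. Of the 21, 20 were called lower late in WT (limma, Benjamini-Hochberg adjusted p under 0.05 over 13539 genes), against 8.52% of all genes tested, and 19 in Tnfr2-/-, against 9.93%. The median log2 fold change was -0.83 in WT and -1.13 in Tnfr2-/-, where the medians of all genes were 0.02 and 0.02. Not called were Mcm2 in both genotypes (-0.54, adjusted p 0.251, and -0.50, 0.299) and E2f1, the activating E2F factor, in Tnfr2-/- (-0.41, 0.0865).

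Markers of other cell types moved in the same contrast. Of the 5 goblet cell markers tested, 5 had higher late estimates and 3 were called in each genotype (Muc2, Tff3 and Fcgbp), with medians of 3.39 in WT and 3.22 in Tnfr2-/-. The goblet markers summed to between 2.75 and 678 early and between 184 and 1802 late in WT, which overlapped, and to between 3.46 and 33.4 early and between 99.1 and 244 late in Tnfr2-/-. Of the colonocyte markers, 2 of 6 were called higher in WT (Car1 and Ceacam20) and 1 in Tnfr2-/- (Ceacam20). Of the 9 epithelial markers, 4 were called higher in WT, and 2 higher and 2 lower in Tnfr2-/-. Of the 10 fibroblast markers, 1 was higher and 1 lower in WT, and 3 were higher in Tnfr2-/-, where all 10 estimates were above 0. Their part in the changes of the members was not tested.

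In the origin licensing and helicase group, 9 of 10 members were called in each genotype, all but Mcm2. Mcm5 had a normalised expression, given throughout for mouse 1 and then mouse 2, of 81.3 and 47.2 (day 1), 83.6 and 60.7 (day 2), 48.5 and 44.9 (day 3), 30.03 and 23.01 (day 5) and 16.6 and 28.6 (day 7) in WT. Mcm5 in Tnfr2-/- was at 57.6 and 63.2 (day 1), 49.2 and 50.6 (day 2), 39.1 and 30.3 (day 3), 15.6 and 21.02 (day 5) and 13.1 and 10.1 (day 7). Mcm5, a helicase subunit, thus stood lower at both late days than at any early day in all 4 mice. Its log2 fold change of -1.64 in Tnfr2-/- (SE 0.19, limma adjusted p 1.37e-04) was the largest of the S members, beside -1.27 in WT (SE 0.19, 7.68e-04). Cdc6, the licensing factor, changed by -1.28 in WT and -0.92 in Tnfr2-/-, and Gmnn, which keeps origins from being licensed again, by -0.74 and -0.99.

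Both replication fork genes were called in both genotypes. Pcna was at 347 and 313 (day 1), 407 and 285 (day 2), 299 and 261 (day 3), 230.5 and 196 (day 5) and 244 and 237 (day 7) in WT. Pcna in Tnfr2-/- was at 328 and 306 (day 1), 281 and 302 (day 2), 247 and 222 (day 3), 169 and 229 (day 5) and 165 and 180.3 (day 7). Pcna thus kept the highest level of the S members throughout. Its late values lay below all early ones in WT, and in Tnfr2-/- all but the day 5 value of mouse 2 did. Its log2 fold change was -0.48 in WT (SE 0.11, limma adjusted p 0.0109) and -0.59 in Tnfr2-/- (SE 0.11, 0.00301), the smallest of the called S members in each genotype. Pola1 changed by -0.78 and -1.14.

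All 4 genes of nucleotide supply were called in both genotypes. Rrm1 was at 112 and 92.8 (day 1), 160.3 and 133 (day 2), 90.8 and 104 (day 3), 73.8 and 61.3 (day 5) and 50.5 and 67.6 (day 7) in WT. Rrm1 in Tnfr2-/- was at 133 and 129.8 (day 1), 121 and 119.5 (day 2), 92.5 and 84.2 (day 3), 50.7 and 55.9 (day 5) and 38.8 and 51.5 (day 7). Rrm2 was at 152 and 108 (day 1), 168 and 125 (day 2), 91.5 and 109.96 (day 3), 41.5 and 54.8 (day 5) and 28.7 and 45.03 (day 7) in WT. Rrm2 in Tnfr2-/- was at 123 and 109 (day 1), 119 and 138 (day 2), 82.9 and 85.9 (day 3), 46.6 and 40.5 (day 5) and 28.8 and 27.5 (day 7). Rrm1 and Rrm2 are the large and small subunits of the enzyme that makes deoxyribonucleotides, and both were lower in every late library than in any early library of the same genotype. The regulated subunit Rrm2 had log2 fold changes of -1.55 in WT (SE 0.15, limma adjusted p 8.35e-05) and -1.60 in Tnfr2-/- (SE 0.15, 6.00e-05), and Rrm1 -0.84 (SE 0.12, 5.59e-04) and -1.18 (SE 0.12, 7.21e-05). Tk1 was at 76.6 and 52.3 (day 1), 89.7 and 71.6 (day 2), 70.9 and 99.01 (day 3), 46.9 and 38.8 (day 5) and 39.4 and 30.9 (day 7) in WT. Tk1 in Tnfr2-/- was at 67.4 and 77.3 (day 1), 85.4 and 85.1 (day 2), 61.8 and 46.5 (day 3), 25.6 and 30.2 (day 5) and 16.996 and 21.6 (day 7). Tk1, the thymidine kinase of the salvage pathway, averaged 76.7 early and 39.0 late in WT and 70.6 early and 23.6 late in Tnfr2-/-, with log2 fold changes of -0.94 in WT (SE 0.15, limma adjusted p 0.00117) and -1.54 in Tnfr2-/- (SE 0.15, 7.21e-05). Tyms, thymidylate synthase, changed by -0.93 and -1.14.

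Of the regulators of S-phase entry and its checkpoint, all 5 were called in WT and 4 in Tnfr2-/-. Chek1, the replication checkpoint kinase, changed by -1.33 and -1.37. The cyclin E genes changed by -0.97 and -0.84 (Ccne1) and by -1.08 and -1.39 (Ccne2). Uhrf1, a factor that takes part in the copying of DNA methylation to the new strand, changed by -0.83 and -1.13.

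The M members fell as well. Late against early, 22 of 26 were called lower in WT and 26 of 26 in Tnfr2-/-, read against the same 8.52% and 9.93% of all genes, with median log2 fold changes of -0.84 and -1.15. The 4 not called in WT were Plk1, the polo kinase (-0.46, limma adjusted p 0.0681), Bub1b, a spindle checkpoint kinase (-0.25, 0.480), Nusap1, a spindle microtubule protein (-0.25, 0.346), and Cenpf (-0.04, 0.967). With the mouse as a block, Plk1 was called in WT too (adjusted p 0.0269).

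All 6 mitotic cyclin, CDK and transcription factor genes were called in both genotypes. Cdk1 was at 171 and 103 (day 1), 175 and 153 (day 2), 132 and 125 (day 3), 71.1 and 68.7 (day 5) and 57.6 and 58.3 (day 7) in WT. Cdk1 in Tnfr2-/- was at 172 and 133 (day 1), 136 and 149 (day 2), 116 and 104 (day 3), 59.9 and 72.2 (day 5) and 53.8 and 53.3 (day 7). Cdk1 was lower in every late library than in any early one of either genotype. Its log2 fold change was -1.13 in WT (SE 0.13, limma adjusted p 1.87e-04) and -1.15 in Tnfr2-/- (SE 0.13, 1.18e-04), a difference of -0.02 (SE 0.18). The cyclin B genes changed by -1.21 and -1.60 (Ccnb1) and by -0.79 and -1.10 (Ccnb2), Ccna2, cyclin A, by -0.77 and -1.15, and Foxm1, the transcription factor of mitotic genes, by -1.09 and -1.19.

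Both genes that act with the anaphase-promoting ubiquitin ligase were called in both genotypes. Cdc20 was at 52.4 and 29.8 (day 1), 75.3 and 66.2 (day 2), 64.2 and 57.5 (day 3), 42.9 and 35.2 (day 5) and 28.5 and 24.99 (day 7) in WT. Cdc20 in Tnfr2-/- was at 51.04 and 56.96 (day 1), 78.9 and 86.3 (day 2), 56.01 and 57.1 (day 3), 24.7 and 28.5 (day 5) and 10.5 and 17.5 (day 7). Ube2c was at 161 and 97.1 (day 1), 187 and 145 (day 2), 117 and 93.6 (day 3), 73.4 and 48.95 (day 5) and 62.1 and 58.6 (day 7) in WT. Ube2c in Tnfr2-/- was at 152 and 127 (day 1), 165 and 156 (day 2), 129.999 and 111 (day 3), 49.4 and 56.5 (day 5) and 36.1 and 36.2 (day 7). In Tnfr2-/- cultures Cdc20, the activator of the ligase, and Ube2c, its ubiquitin-conjugating enzyme, were lower at 5 DPP than at any early day and lowest at 7 DPP in both mice. Cdc20 had the largest log2 fold change of all 47 members, -1.68 in Tnfr2-/- (SE 0.16, limma adjusted p 7.04e-05), with -0.76 in WT (SE 0.16, 0.00569). Ube2c changed by -1.65 in Tnfr2-/- (SE 0.15, 6.00e-05) and -1.09 in WT (SE 0.15, 5.59e-04).

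Of the 6 mitotic kinases and checkpoint genes, 4 were called in WT and 6 in Tnfr2-/-. Birc5 was at 109 and 73.8 (day 1), 141 and 109 (day 2), 86.4 and 77.7 (day 3), 60.05 and 35.5 (day 5) and 35.3 and 38.996 (day 7) in WT. Birc5 in Tnfr2-/- was at 123 and 119 (day 1), 94.3 and 108 (day 2), 69.1 and 61.9 (day 3), 33.6 and 42.1 (day 5) and 22.6 and 21.3 (day 7). Birc5 (survivin), of the chromosomal passenger complex with Aurkb, was lower at both late days than at any early day in all 4 mice, with log2 fold changes of -1.21 in WT (SE 0.15, limma adjusted p 2.92e-04) and -1.66 in Tnfr2-/- (SE 0.15, 6.00e-05). The Aurora kinases changed by -0.94 and -1.46 (Aurka) and by -0.76 and -1.30 (Aurkb).

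Of the 7 spindle and cytokinesis genes, 6 were called in WT and 7 in Tnfr2-/-. Kif23 was at 117 and 107 (day 1), 190.2 and 218 (day 2), 90.7 and 134 (day 3), 93.3 and 58.4 (day 5) and 81.1 and 67.9 (day 7) in WT. Kif23 in Tnfr2-/- was at 125 and 141 (day 1), 116 and 139 (day 2), 104 and 99.6 (day 3), 62.3 and 64.6 (day 5) and 31.1 and 23.9 (day 7). Kif23, the kinesin of the spindle midzone, was highest at 2 DPP in both WT mice and lowest of all at 7 DPP in both Tnfr2-/- mice, with log2 fold changes of -0.87 in WT (SE 0.15, limma adjusted p 0.00151) and -1.50 in Tnfr2-/- (SE 0.15, 7.04e-05). Kif11, the spindle-separating kinesin, is listed under 2 gene identifiers with equal values that were summed here, and changed by -0.71 and -1.10. Mki67, the widely used proliferation marker, changed by -0.61 and -0.99, and Top2a, topoisomerase II alpha, by -0.82 and -1.15.

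For late against early in WT, 9 S and 14 M members were called without mouse 1, where the share of all genes called lower was 2.54%, and 20 S and 21 M members without mouse 2 (7.83%). In Tnfr2-/-, no member was called without either of its mice, but then 2 and 3 of all 13539 genes were called in either direction. Every called change of a member kept its direction in these last fits. In those fits each day of that genotype has 1 library, assumed to vary like the others.

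**Figure D4:**
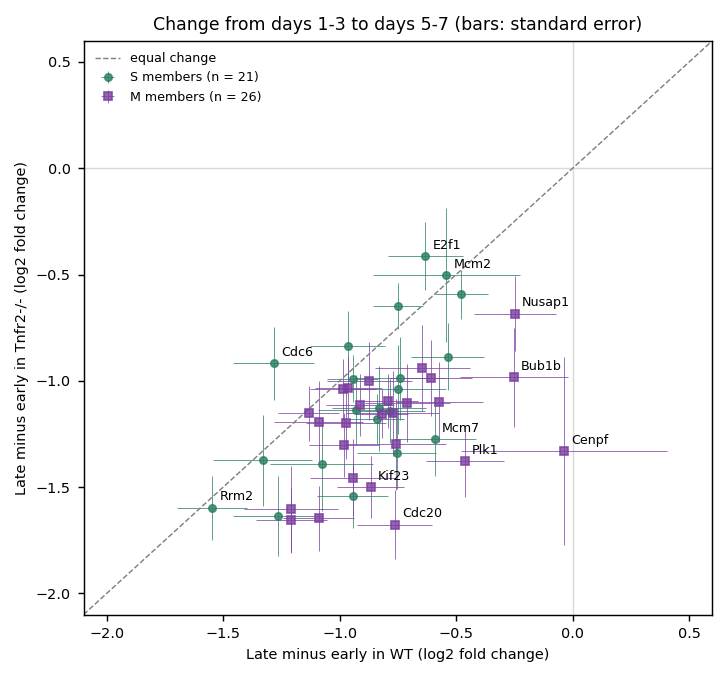
Log2 fold change late against early in WT (x axis) and in Tnfr2-/- (y axis) for the 21 S members and 26 M members, with standard errors; the dashed line marks equal change. All points lie below 0 on both axes, from -0.04 for Cenpf in WT to -1.68 for Cdc20 in Tnfr2-/-, and all 26 M members and 16 of the 21 S members lie under the line.

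The next comparison placed the changes between neighbouring days, averaged over both genotypes. From 1 to 2 DPP, 25 of 26 M members had a higher estimate at 2 DPP (median log2 fold change 0.25), and 16 of 21 S members had a lower one (median -0.09). The S average joins unlike genotypes, since the mean S score was 0.59 and then 0.65 in WT but 0.58 and then 0.31 in Tnfr2-/-, a contrast that was not tested. Of the M members 1 was called higher, against 0.51% of all genes, and none of either set lower, against 0.251%. The call was that of Ccnb2 (chromosome 9, 70407692 to 70421547). Ccnb2 was at 33.4 and 20.5 (day 1), 57.2 and 53.9 (day 2), 50.6 and 50.4 (day 3), 30.7 and 25.9 (day 5) and 20.1 and 19.98 (day 7) in WT. Ccnb2 in Tnfr2-/- was at 41.8 and 44.1 (day 1), 53.2 and 51.4 (day 2), 43.05 and 40.1 (day 3), 25.02 and 29.1 (day 5) and 14.2 and 17.5 (day 7). The gain was therefore seen in both mice of each genotype, by a log2 of 0.67 (SE 0.14, limma adjusted p 0.0473). Of 24 fits that each left out 1 library or mouse, 20 lost this call, while 2 M members were called without the WT day 1 library of mouse 1, and none was called with a pseudocount of 0.1. With the mouse as a block, where 294 of all 13539 genes were called in either direction, Cdc20 was also higher at 2 DPP (0.71, adjusted p 0.0211, 0.0933 without the block).

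By the mean of log2(value + 1) over 2 mice, 24 of 26 M members peaked at 2 DPP in WT. In Tnfr2-/- 12 peaked at 1 DPP and 13 at 2 DPP. Of the S members, 8 peaked at 1 DPP and 12 at 2 DPP in WT, and 16 at 1 DPP and 4 at 2 DPP in Tnfr2-/-. The lowest day was 7 DPP for 17 S and 19 M members in WT and for 20 S and all 26 M members in Tnfr2-/-. On unlogged means, 9 S members peaked at 1 DPP and 11 at 2 DPP in WT, 20 M members were lowest at 7 DPP there, and the other counts given here were equal. No test was made of these peak days.

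From 2 to 3 DPP no member was called by limma, as no gene was called lower (0% of all genes). Median log2 fold changes were -0.35 for S and -0.41 for M members, beside 0 for all genes. Without WT mouse 2, 1 S member was called, and 0.0886% of all genes were called lower. From 3 to 5 DPP, 4 S members fell, Rrm1 (-0.62), Rrm2 (-0.9997), Tk1 (-0.94) and Chek1 (-1.01), against 0.968% of all genes. Of the M members, 10 fell, among them Ube2c (-0.98, SE 0.17, limma adjusted p 0.0197), Ccnb1 (-0.94), Foxm1 (-0.87), Cdc20 (-0.85), Cdk1 (-0.80), Birc5 (-0.80) and Top2a (-0.67). The mouse as a block raised these counts to 7 S and 16 M members, and the share of all genes called lower to 1.92%. The S count was 0 without the WT day 3 library of mouse 2, the Tnfr2-/- day 3 library of mouse 1, the Tnfr2-/- day 5 library of mouse 2 or either Tnfr2-/- mouse. It was 1 without the Tnfr2-/- day 3 library of mouse 2 or day 5 library of mouse 1, and 2 without the WT day 3 library of mouse 1 or any WT day 5 or Tnfr2-/- day 1 or day 2 library. The M count was 0 without any Tnfr2-/- day 3 or day 5 library or either Tnfr2-/- mouse, 2 without the WT day 3 or day 5 library of mouse 2, 3 without the WT day 3 library of mouse 1 and 5 without any Tnfr2-/- day 1 or day 2 library. The share of all genes called lower shrank in these fits too. It was 0% without either Tnfr2-/- mouse, 0.0295% to 0.096% without a Tnfr2-/- day 3 or day 5 library, 0.17% without the WT day 3 library of mouse 2 and 0.318% to 0.451% without any other library just named. From 5 to 7 DPP no member was called lower by limma, against 0.0148% of all genes. Median log2 fold changes were -0.32 for S and -0.32 for M members, beside 0 for all genes. Here the block called Cdc20 (-0.72, adjusted p 0.0372, 0.172 without it), with 0.273% of all genes lower. Without WT mouse 2 there were 2 S calls and 1 M call, with 0.325% of all genes lower.

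The comparison of genotypes at the late days, the mean of 5 and 7 DPP, asked whether proliferation genes differed once the cultures had matured. A minority, 7 of 47, were called lower in Tnfr2-/-. They were 4 of the S members (19%) and 3 of the M members (11.5%), against 2.64% of all genes, and none was called higher. The median log2 fold change was -0.36 for S and -0.45 for M members, beside -0.05 for all genes, and 19 of 21 and 26 of 26 estimates were below 0.

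The called S members were 3 subunits of the replicative helicase and Tk1. Mcm7 was at 122 and 78.3 (day 1), 119 and 81.2 (day 2), 88.8 and 77.6 (day 3), 60.5 and 60.995 (day 5) and 47.3 and 80.01 (day 7) in WT. Mcm7 in Tnfr2-/- was at 94.9 and 79.5 (day 1), 81.5 and 88.4 (day 2), 81.6 and 55.4 (day 3), 37.9 and 43.5 (day 5) and 24.5 and 26.4 (day 7). Mcm7 (chromosome 5, 138164583 to 138172422) was lower in all 4 late Tnfr2-/- libraries than in any late WT library, with a log2 difference of -0.91 (SE 0.19, adjusted p 0.0163 by limma). Mcm3 was at 69.9 and 56.99 (day 1), 90.03 and 86.5 (day 2), 60.9 and 36.5 (day 3), 48.5 and 43.5 (day 5) and 26.1 and 35.99 (day 7) in WT. Mcm3 in Tnfr2-/- was at 80.6 and 70.2 (day 1), 46.5 and 60.6 (day 2), 45.97 and 38.1 (day 3), 20.3 and 28.9 (day 5) and 15.8 and 21.6 (day 7). Mcm3 (chromosome 1, 20802968 to 20820312) overlapped between the genotypes in 1 Tnfr2-/- library, that of day 5 from mouse 2, and had a log2 difference of -0.80 (SE 0.18, adjusted p 0.0230 by limma). Mcm4 was at 70.6 and 67.1 (day 1), 66.1 and 66.3 (day 2), 44.96 and 51.3 (day 3), 34.5 and 32.2 (day 5) and 23.5 and 34.5 (day 7) in WT. Mcm4 in Tnfr2-/- was at 56.5 and 56.8 (day 1), 48.7 and 45.2 (day 2), 37.2 and 33.4 (day 3), 22.99 and 27.8 (day 5) and 19.4 and 20.2 (day 7). Mcm4 (chromosome 16, 15623897 to 15637400) also overlapped, by the same library, with a log2 difference of -0.45 (SE 0.12, adjusted p 0.0443 by limma, and 0.0603 with the mouse as a block, where the call was lost). Tk1 (chromosome 11, 117815526 to 117826092), whose values stand above, was lower in all 4 late Tnfr2-/- libraries than in any WT one, by a log2 of -0.71 (SE 0.17, limma adjusted p 0.0232).

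The called M members were Plk1, Kif23 and Cdc20. Plk1 was at 47.3 and 28.9 (day 1), 54.6 and 41.4 (day 2), 49.2 and 42.3 (day 3), 41.2 and 28.1 (day 5) and 29.6 and 27.02 (day 7) in WT. Plk1 in Tnfr2-/- was at 46.4 and 43.7 (day 1), 54.9 and 47.3 (day 2), 38.03 and 29.3 (day 3), 16.4 and 19.9 (day 5) and 11.5 and 16.3 (day 7). Plk1 (chromosome 7, 122159439 to 122169873), which drives mitotic entry and spindle assembly, was lower in all 4 late Tnfr2-/- libraries, at 16.01 ± 3.45 (SD, n = 4) against 31.5 ± 6.56 (SD, n = 4) in WT, while its early levels were 43.3 ± 8.76 and 44.0 ± 8.80 (SD, n = 6 each). The log2 fold change at the late days was -0.94 (SE 0.18, adjusted p 0.0103 by limma). Kif23 (chromosome 9, 61915905 to 61946774) had a log2 difference of -0.81 (SE 0.16, adjusted p 0.0103 by limma) and Cdc20 (chromosome 4, 118432901 to 118437352) of -0.73 (SE 0.18, 0.0280). Kif23 overlapped between the genotypes at 5 DPP and not at 7 DPP. For Cdc20 both libraries of Tnfr2-/- were below those of WT at each late day, and the genotypes overlapped only across days. Of the members, 3 S (Mcm7, Gins2 and Tk1, 14.3%) and 1 M (Plk1, 3.85%) had all late Tnfr2-/- libraries below all late WT ones, against 6.07% of all genes.

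At an unadjusted limma p under 0.05, 12 S and 12 M members were lower, and 1665 of all 13539 genes were lower at that threshold. Among members not called, Mki67 averaged 27.4 late in Tnfr2-/- and 40.5 in WT. Several other members did not differ detectably. Cdk1 had a log2 difference of -0.10 (SE 0.14), Prc1, a midzone protein, of -0.08 (SE 0.16), Ccne1 of -0.01 (SE 0.18), and Cdc6 and E2f1 had higher estimates in Tnfr2-/- (0.10, SE 0.19, and 0.22, SE 0.18).

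On the means of each mouse, 2 mice against 2, no gene of the 13539 was called by limma at the late days. The S count was 0 without the WT day 5, Tnfr2-/- day 5 or Tnfr2-/- day 7 library of mouse 1 or without either Tnfr2-/- mouse, and 2 without the WT day 7 or Tnfr2-/- day 5 library of mouse 2. The M count was 1 without the WT day 5 library of mouse 1 or without WT mouse 1, 9 without the WT day 5 library of mouse 2, 11 without WT mouse 2 and 0 without either Tnfr2-/- mouse. The share of all genes called lower moved in the same fits. Without a library of mouse 1 it was 0.606% (WT day 5), 0.99% (Tnfr2-/- day 5) and 0.916% (Tnfr2-/- day 7), and without a library of mouse 2 it was 4.92% (WT day 5), 2.1% (WT day 7) and 0.82% (Tnfr2-/- day 5). It was 1.48% without WT mouse 1, 7.88% without WT mouse 2 and 0.0369% and 0.00739% without Tnfr2-/- mouse 1 and mouse 2. Over the 24 fits that each left out 1 library or mouse, the call was lost in 19 for Mcm4, 8 for Tk1, 8 for Cdc20, 7 for Mcm3, 5 for Mcm7 and 4 each for Plk1 and Kif23. The cultures also differed in other cell type markers late: the fibroblast markers summed to 3728 to 8594 in Tnfr2-/- (median 6543) and 1242 to 4051 in WT (median 2581), with 10 of 10 estimates higher and 2 called (Dcn, log2 fold change 2.74, and Vim, 1.69). Goblet cell markers summed to 99.1 to 244 in Tnfr2-/- and 184 to 1802 in WT, with 0 of the 5 tested called, and the epithelial markers to 14378 to 20253 and 16093 to 20677. Of the 6 markers of differentiated colonocytes, 1 was called lower (Car1, a carbonic anhydrase, -4.73, limma adjusted p 0.0315), with sums of 324 to 380 in Tnfr2-/- (median 360) and 304 to 978 in WT (median 681). Of the 2 immune markers tested, Cd68 was called higher (1.35, 0.00640), with sums over the list of 19.6 to 45.2 (median 35.1) in Tnfr2-/- and 8.75 to 16.9 (median 13.2) in WT. The part of these cell type markers in the result was not tested.

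**Figure D5:**
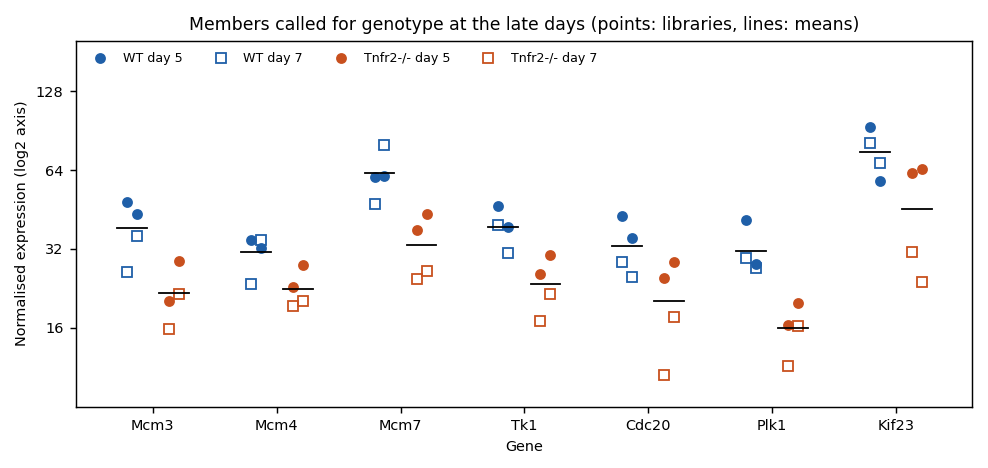
Normalised expression (y axis, log2 scale) at 5 and 7 DPP of the 7 members called for genotype at the late days (x axis); each point is a library and each line the mean of 4. For Mcm7, Tk1 and Plk1 no Tnfr2-/- point reaches a WT point, and Plk1 averages 16.01 in Tnfr2-/- and 31.5 in WT.

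Over all 5 days, with day as a factor, 5 S members were lower in Tnfr2-/- (23.8%) and no M member was called (0%), against 3.09% of all genes. At an unadjusted p under 0.05, 13 S and 6 M members were lower, and 1552 of all 13539 genes were lower at that threshold. The 5 were Mcm4 (-0.42, SE 0.07, limma adjusted p 0.00172), Chek1 (-0.67, SE 0.17, 0.0275), Ccne2 (-0.62, SE 0.17, 0.0346), Mcm5 (-0.47, SE 0.13, 0.0369) and Mcm7 (-0.50, SE 0.14, 0.0417). At each of the 5 days both libraries of Tnfr2-/- were below those of WT for Mcm4, as the values above show. With the mouse as a block (1.43% of all genes lower), Mcm4 was called (adjusted p 0.00615) and the others were not, Chek1 at 0.0692, Ccne2 at 0.0825, Mcm5 at 0.0861 and Mcm7 at 0.0950. On mouse means 7 of all 13539 genes were called in either direction, 0 of them members. The S count was 8 without the WT day 1 library of mouse 2 and 9 without WT mouse 2, where 2 and 9 M members were called. The S count was 3 without the WT day 1 library of mouse 1, the WT day 5 library of mouse 2 or the Tnfr2-/- day 2 library of mouse 2, and 2 without the WT day 3 or day 5 library of mouse 1, the Tnfr2-/- day 2 library of mouse 1, either Tnfr2-/- day 5 library or the Tnfr2-/- day 7 library of mouse 2. It was 1 without the WT day 2 library of mouse 1, the WT day 7 library of mouse 2, the Tnfr2-/- day 3 library of mouse 2, the Tnfr2-/- day 7 library of mouse 1 or WT mouse 1, and 0 without either Tnfr2-/- mouse. The share of all genes called lower was 3.69% and 6.73% in the fits with 8 and 9 S calls, 2.38% to 2.81% in those with 3, 1.94% to 2.59% in those with 2, 1.4% to 2.25% in those with 1 and 0.48% in both with 0. Of the 24 fits, the call was lost in 2 for Mcm4, 12 for Chek1, 14 each for Mcm5 and Ccne2 and 17 for Mcm7.

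At the early days no member was called for genotype by limma, against 0.428% of all genes called lower. At an unadjusted p under 0.05, 4 S and 0 M members were lower, and 836 of all 13539 genes were lower at that threshold. Medians were -0.20 for S and -0.04 for M members, and 9 of 26 M estimates were above 0. The S member of lowest p was Mcm4 (-0.40, SE 0.10, adjusted p 0.0751). There were 2 S calls without either WT day 7 library (0.517% and 0.502% of all genes lower), and 1 S and 1 M call without WT mouse 2 (1.79%).

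Whether the genotype effect differed between late and early days was tested as an interaction. No member was called by limma, against 0.0295% of all genes called lower. At an unadjusted p under 0.05, 3 S and 5 M members were lower, and 825 of all 13539 genes were lower at that threshold. All 26 M estimates and 16 of 21 S estimates were below 0, with medians of -0.39 and -0.25. With the mouse as a block, which fits a contrast made within mice (0.303% of all genes lower), Cdc20 (adjusted p 0.0325) and Plk1 (0.0436) were called. Without the block, their interaction terms were -0.91 (SE 0.23, limma adjusted p 0.154) and -0.91 (SE 0.24, 0.165). On mouse means 1 of all 13539 genes was called and no member. Cdc20 and Plk1 were thus called under the block alone, and no other member was called in any of these 3 fits. The block fit takes single libraries as its units and rests on the reading of the codes as mice. A difference between the late and the early genotype effects is therefore not established for either gene.

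A list of 46 other S-phase genes and a list of 47 other M-phase genes were read in the same fits, against the same shares of all genes as the members, and the gene of lowest p is named for each. Late against early, 34 of the 46 S-phase genes were lower in WT and 38 in Tnfr2-/-, with Orc6, a subunit of the origin recognition complex (-1.44, adjusted p 1.49e-04), at the lowest p in WT and Chaf1a, which assembles chromatin on new DNA (-1.39, 4.23e-05), in Tnfr2-/-. Of the 47 M-phase genes, 29 and 41 were lower, with Tacc3, a spindle protein (-1.15, 3.48e-04), and Pbk, a mitotic kinase (-1.45, 1.06e-04), at the lowest p. For genotype at the late days, 5 S-phase and 5 M-phase genes were lower, against 2.64% of all genes. With the mouse as a block 3 and 4 were lower, against 2.06%. The lowest p was that of Chaf1a (-0.67, limma adjusted p 0.00806) and of Pbk (-0.94, 0.00806). Over all days 9 and 2 were lower, against 3.09% of all genes, and 6 and 1 with the block, against 1.43%. The lowest p was that of Prim1, a primase subunit (-0.51, 0.00308), and of Hjurp, the chaperone of the centromeric histone (-0.41, 0.0182). From 1 to 2 DPP Gtse1 was higher (0.75, limma adjusted p 0.0482), against 0.51% of all genes. From 3 to 5 DPP 5 and 9 were lower, against 0.968%, and 10 and 14 with the block, against 1.92%.

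Among genes that are no member, those whose log2 level was most like the S score over the 20 libraries included Chaf1a (Pearson r 0.977), Nop56, a nucleolar protein of ribosome assembly (0.974), Ddx39 (0.971) and Ercc6l (0.960). Most like the M score were Nup205, a nuclear pore protein (0.968), Racgap1, the partner of Kif23 (0.965), Fam83d (0.964), Nek2 (0.962) and Ppil1 (0.960). These were picked as the highest among all genes tested and are a description without a test.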

How the data were processed

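Per the labels, total RNA of WT and Tnfr2-/- mouse colonoids at 1, 2, 3, 5 and 7 DPP was made into stranded mRNA libraries. The submitters' processing notes name CASAVA, kallisto and sleuth and the build mm10. The deposited values are a signal per transcript, TPM divided by the authors with a size factor per library, which sum to 900655 to 1111080 per library. They keep no read depth, so no counting error can be given. The authors' columns of p-values, q-values and test statistics were not used.

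Of 113974 lines, 781 repeats were dropped, and 199 transcripts without a symbol (at most 0.0989% of a library) were left out. Values were summed per gene symbol. The 13539 genes with a mean of at least 1 were fitted as log2(value + 1) with limma 3.58.1 (R 4.3.3) using a mean-variance trend and Benjamini-Hochberg adjustment over all of them. A gene is called at an adjusted p under 0.05. The pseudocount makes fold changes of low genes too small. Genotype over all days came from day as a factor plus genotype, and all other contrasts from a fit of 10 group means that shares 1 spread. Tests were planned for plain TPM or counts, and this scaled TPM was treated as a normalised value. The script was tested on simulated data. Figures used Python 3.11.15 and matplotlib 3.10.9.

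The replicate number was read as the mouse from the sample codes (M1 and M2), which no source used here states outright. If so, the 5 libraries of a mouse are repeated samples, and p-values of genotype over several days can be too small. Deviations of libraries of the same mouse from their group means correlated at a median of 0.203 in WT and 0.0386 in Tnfr2-/-. Numbers shared by WT and Tnfr2-/- cannot name 1 animal. Alternatives were the mouse or the number as a block, mouse means, a pseudocount of 0.1, no filter, equal library medians, sums per Ensembl gene, and leaving out each library and mouse.

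The members, gene lists and tests were chosen with earlier results of these data known. Values in every library are given for the 3 members of each set with the highest mean, the 3 called with the largest late against early change, and those called for genotype (at most 4 per set). Beyond this rule, Ccnb2 was named after its values were seen, as were the members cited with fold changes that were not called, and the 6 promoter windows were chosen for their motif letters. Some genes that the rules would name are not reported here.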

Additional observations from a re-analysis of the deposited data

Results flagged for a closer look

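In 64 groups of 4 or 6 libraries, namely the late or the early days of 1 genotype, the S score, the M score and the named members were searched for a library far from the rest of its group. Only 1 was found. The cutoff would flag about 1 in 20 groups of alike and independent samples. The groups here pool days whose levels differ and share libraries, so the count cannot be set against chance. For Birc5 at the late days of WT, the day 5 library of mouse 1 was at 60.0 and the other 3 lay between 35.3 and 39.0. This gap took up 0.851 of the range of the group.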

How the results depend on the processing

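No called change of a member reversed its direction under an alternative, and estimates that were not called were not examined for this. Equal library medians and sums per Ensembl gene kept every count of calls within 1.5 times, and these medians moved that of all genes by under 0.1 in log2. Calls for genotype over all days fell from 5 S members, with 3.09% of all genes lower, to 1 with no filter (1.45%). They fell to 1 with the replicate block of the mouse (1.43%) and 0 on mouse means (0.00739%). At the late days mouse means gave 0 S and 0 M calls, and 0 of all genes. The mouse block gave 2 M calls for the interaction, 2 from 1 to 2 DPP, 7 S and 16 M from 3 to 5 DPP and 1 M from 5 to 7 DPP, and it moved no other count by over 1.5 times. The number as a block, which pairs different animals, gave 7 S calls from 3 to 5 DPP. In that fit 1.37% of all genes were called lower, against 0.968% in the main fit. The deviations of libraries that share a number across genotypes correlated at a median of 0.0373. A pseudocount of 0.1 gave 0 M calls from 1 to 2 DPP. Leaving out 1 library or mouse gave S and M counts of 0 to 9 and 0 to 9 for genotype over all days (8 S without the WT day 1 library of mouse 2), 0 to 5 and 0 to 11 late, and 0 to 2 and 0 to 1 early. They were 9 to 20 and 14 to 22 for late against early in WT, 0 to 20 and 0 to 26 in Tnfr2-/-, 0 to 0 and 0 to 0 for the interaction, 0 to 0 and 0 to 2 from 1 to 2 DPP, 0 to 1 and 0 to 0 from 2 to 3 DPP, 0 to 6 and 0 to 12 from 3 to 5 DPP and 0 to 2 and 0 to 1 from 5 to 7 DPP. The causes were not tested. With no read depth in the table, counting error at low levels is unknown.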
